A study of Mus musculus with 88 samples.

Results

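Cluster 2 is 1 of the groups into which the study's clustering divided single cells of undifferentiated mouse embryonic stem cells and of embryoid bodies. Its members are the cells that carry the number 2 in the deposited cluster column made at a resolution of 2.5. It held 340 of 4949 cells, or 6.87%. The cluster has no cell type name of its own, and none is given to it here. Its makeup by genotype and day is described first, then its genes against all other cells and against the other clusters of its main day.

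The study asked how loss of subunits of the Polycomb repressive complex PRC2 changes the exit from pluripotency. Single cells were taken from 4 kinds of embryonic stem cells (WT, Eed null, Jarid2 null and Mtf2 null). Each kind was sampled undifferentiated at day 0 and as embryoid bodies at days 4, 7 and 10. This gives 16 libraries and 1 library for each genotype and day. For embryoid bodies, cells were aggregated in serum with LIF, LIF was then withdrawn, and the bodies of several wells were pooled. Live cells were sorted by 7-AAD exclusion, 1 cell to a well. The WT cells were of the E14 line, while the methods name other WT lines as the matched controls of the null lines in the bulk experiment (Pcl1-3 WT for Mtf2 null, JM8 WT for Jarid2 null, J1 WT for Eed null), so genotype, line of origin and library cannot be told apart in the single cells. A first separate readout was bulk RNA of undifferentiated WT, Mtf2 null and Jarid2 null cells. Each genotype had 4 such libraries, taken as the start of a mesoderm and of an endoderm series. Another was the bulk embryoid body series of days 0, 2, 4 and 7. Its day 0 libraries carry the label mono and its later ones the label eb.

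PRC2 methylates histone H3 at lysine 27 and keeps developmental genes silent. EED belongs to its core, MTF2 marks the PRC2.1 form and helps bring it to CpG islands, and JARID2 belongs to the PRC2.2 form. Cells that leave naive pluripotency turn down transcription factors such as Esrrb, Klf4 and Tfcp2l1 and pass through a formative state in which Otx2, Dnmt3b, Pou3f1 and Fgf5 are turned on. Inside aggregates oxygen and nutrients can run low. HIF transcription factors then bind a short element with the core ACGTG or GCGTG and turn on genes of glucose uptake, glycolysis and mitophagy, while p53 turns on Cdkn1a, Mdm2 and other genes of growth arrest and cell death.

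The genes that led cluster 2 over cluster 5, which shared its main day and both of its null lines, included Ddit4, Anxa2 and Crebrf, and Bnip3 was among the leading genes against all other cells. Their promoters are printed here, as 4 examples chosen after their values were seen, because they hold ACGTG, a core that HIF and other factors can bind. Each run is the 250 bases before the annotated start in RefSeq on GRCm38.p6, read 5′ to 3′ on the gene's strand, and capitals mark ACGTG on either strand.
Ddit4 (chr10:59951771-59952020, minus strand), an inhibitor of mTORC1: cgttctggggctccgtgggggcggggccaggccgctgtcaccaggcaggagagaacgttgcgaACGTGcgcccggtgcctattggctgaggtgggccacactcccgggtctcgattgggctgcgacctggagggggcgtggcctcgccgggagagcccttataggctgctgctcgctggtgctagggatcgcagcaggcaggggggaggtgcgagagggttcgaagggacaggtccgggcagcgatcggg
Bnip3 (chr7:138909507-138909756, minus strand), a mitophagy receptor: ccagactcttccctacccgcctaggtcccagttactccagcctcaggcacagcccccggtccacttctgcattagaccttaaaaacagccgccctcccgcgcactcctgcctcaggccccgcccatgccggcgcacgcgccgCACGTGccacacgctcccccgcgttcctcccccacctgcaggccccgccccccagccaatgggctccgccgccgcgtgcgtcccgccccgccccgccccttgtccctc
Crebrf (chr17:26715400-26715649, plus strand), a regulator of CREB3: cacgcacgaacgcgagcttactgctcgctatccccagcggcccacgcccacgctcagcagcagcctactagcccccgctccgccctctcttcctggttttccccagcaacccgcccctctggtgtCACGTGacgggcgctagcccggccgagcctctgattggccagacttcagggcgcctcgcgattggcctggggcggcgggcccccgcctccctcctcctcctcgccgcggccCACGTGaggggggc
Anxa2 (chr9:69453433-69453682, plus strand), a calcium-dependent membrane-binding protein: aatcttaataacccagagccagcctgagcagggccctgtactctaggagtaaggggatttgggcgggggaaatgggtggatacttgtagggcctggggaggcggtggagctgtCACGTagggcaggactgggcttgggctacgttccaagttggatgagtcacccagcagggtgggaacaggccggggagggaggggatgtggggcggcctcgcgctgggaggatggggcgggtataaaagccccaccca
The match in Ddit4 began 187 bases before the start and that in Anxa2 137 bases before it. Bnip3 held the palindrome CACGTG, which reads as ACGTG on both strands, and Crebrf held it at both of its places. Among the other leading genes over cluster 5, Gadd45b and Ifi30 also held CACGTG. Of all 32851 promoters in the RefSeq table, 16.6% held ACGTG and 38.6% held ACGTG or GCGTG in the same window, on either strand. Of the 15 genes that led cluster 2 over cluster 5, 11 matched the table with 12 promoters, of which 6 held ACGTG and 10 held either sequence. Of all genes higher than in cluster 5, 106 of 127 matched with 131 promoters, of which 32.8% held ACGTG and 64.9% held either. The share over all promoters is not matched to these genes for expression or CpG content. These matches describe letters in a window and show no binding, and a role of HIF factors or of any other factor was not tested.

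Cluster 2 was made up almost wholly of Mtf2 null and Jarid2 null cells, most of them of day 4. Of its 340 cells, 174 (51.2%) were Jarid2 null, 162 (47.6%) were Mtf2 null, 4 (1.18%) were WT and none was Eed null. By day, 264 cells (77.6%) came from day 4, 38 from day 7, 20 from day 0 and 18 from day 10.

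The share of a library that fell into cluster 2 was close to 4 in 10 in both null lines at day 4. It was 39.9% in Mtf2 null (132 of 331 cells, 95% Clopper-Pearson interval 34.6 to 45.4) and 40.8% in Jarid2 null (131 of 321, 35.4 to 46.4), and these intervals overlapped almost fully. In WT at day 4 it was 0.302% (1 of 331, 0.008 to 1.67), and in Eed null 0 of 320 cells. A count of 0 allows a share of up to 0.938% by a limit of 3 cells and of 1.15% by the same Clopper-Pearson method. Before and after day 4 the share was small in both lines. In Mtf2 null it was 1.44% at day 0 (5 of 347, 0.469 to 3.33), 4.65% at day 7 (16 of 344, 2.68 to 7.44) and 2.80% at day 10 (9 of 321, 1.29 to 5.26). In Jarid2 null it was 4.15% at day 0 (14 of 337, 2.29 to 6.87), 6.62% at day 7 (20 of 302, 4.09 to 10.0) and 3.41% at day 10 (9 of 264, 1.57 to 6.37). WT gave 1 of 340 cells at day 0, 2 of 316 at day 7 and 0 of 214 at day 10. The Eed null libraries of days 0, 7 and 10 gave 0 of 340, 0 of 319 and 0 of 202. These intervals cover counting error alone. With 1 library per genotype and day, and lines of different origin, no test between genotypes was made. Among cells with at least 2500 UMIs the day 4 shares were 41.8%, 40.7% and 0.348% in Mtf2 null, Jarid2 null and WT.

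**Figure D1:**
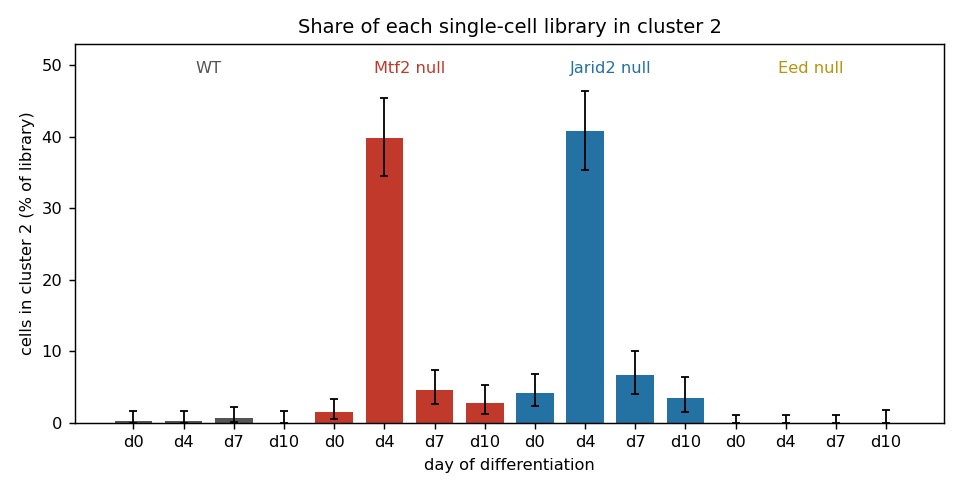
Share of each single-cell library (percent of its cells, vertical axis) that belonged to cluster 2, by genotype and day, with 95% Clopper-Pearson intervals as error bars. The Mtf2 null and Jarid2 null libraries of day 4 stand at 39.9% and 40.8%, and every other library lies at or below 6.62%.

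In the cells of cluster 2 each targeted gene was low under its own null label. Mtf2 was at 40.9 UMI CPM (UMIs of the gene over all UMIs of the group, scaled to 1000000, with an exact Poisson 95% interval of 29.7 to 54.9) in its Mtf2 null cells and 439 (400 to 482) in its Jarid2 null cells. Jarid2 was at 109 (89.9 to 131) in its Jarid2 null cells and 421 (383 to 462) in its Mtf2 null cells. The 4 cells labelled WT held 8 UMIs of Mtf2, 11 of Jarid2 and none of Hprt among 19736 UMIs. Hprt was at 1.97 UMI CPM in all WT cells in contrast to 415 in Eed null, 525 in Jarid2 null and 470 in Mtf2 null cells, so WT and null lines differed in this gene over and above the targeted subunit.

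The pluripotency markers were present and most lineage markers were close to 0, apart from some of the germ cell list. In the 264 cells of day 4, the 6 core pluripotency genes (Pou5f1, Sox2, Utf1 and others) summed to 2881 UMI CPM and none was under 50. The 10 primitive streak genes summed to 21.1 with all under 50 and 4 at 0, the 10 genes of lateral and cardiac mesoderm to 18.7 with 2 at 0, the 8 of blood and endothelium to 39.2 with 4 at 0, and the 6 of definitive endoderm to 14.6 with 3 at 0. Single genes made up most of some other sums: Sox11 203 of 233 in the neural list, Tfap2c 130 of 165 in the trophoblast list and Sparc 75.5 of 126 in the extraembryonic endoderm list. The 9 germ cell genes summed to 846, with 5 under 50 and 0 at 0, and the highest was Dnmt3l at 289. In the other day 4 clusters this sum ran from 461 in cluster 7 to 2063 in cluster 10. The genes of the 2-cell-like list were all at 0, and the 8 fibroblast (feeder) genes summed to 48.6.

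Cells of cluster 2 held fewer gene UMIs per spike-in UMI than the other cells of the same library. Spike-in RNA is added in equal amount to each well, so this ratio follows the RNA recovered from a cell. Its numerator is a sum over the genes that were clustered, so it is given as a description. At day 4 the median ratio was 103 in the Mtf2 null cells of cluster 2 against 141 in the other cells of that library, and 91.8 against 151 in the Jarid2 null library. In the Mtf2 null libraries of days 0, 7 and 10 it was 324 against 467, 81.8 against 172 and 47.8 against 69.2. In the Jarid2 null libraries of days 0, 7 and 10 it was 385 against 438, 170 against 301 and 57.2 against 61.8. The ratio was thus lower in 8 of 8 libraries, by a mean of −0.55 on the log2 scale (SD 0.32, n = 8 libraries). Median spike-in UMIs alone, which the clustering did not use, differed by 0.09 (log2) and were lower in 2 of 8 libraries (p = 0.281, two-sided exact sign-flip permutation test).

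The lower ratio was also seen against clusters 5 and 1. In the Mtf2 null library of day 4 the medians were 151 in cluster 5 and 156 in cluster 1, and in the Jarid2 null library 157 and 240. The few Mtf2 null cells of other clusters were lower than cluster 2, at 60.6 in cluster 7 (9 cells) and 95.6 in cluster 12 (12 cells). Inside the WT library, cluster 7, which held most WT cells of that day, was at 61.7 and cluster 12 at 96.0. Levels of different plates are not compared. Median spike-in UMIs were 115 in these WT cells, against 86 and 76 in the Mtf2 null and Jarid2 null cells of cluster 2. How far depth entered the clustering was not tested. Median UMIs at day 4 were 5878 in cluster 2, 8391 in cluster 5, 10447 in cluster 1, 4554 in cluster 7 and 7030 in cluster 12.

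**Figure D2:**
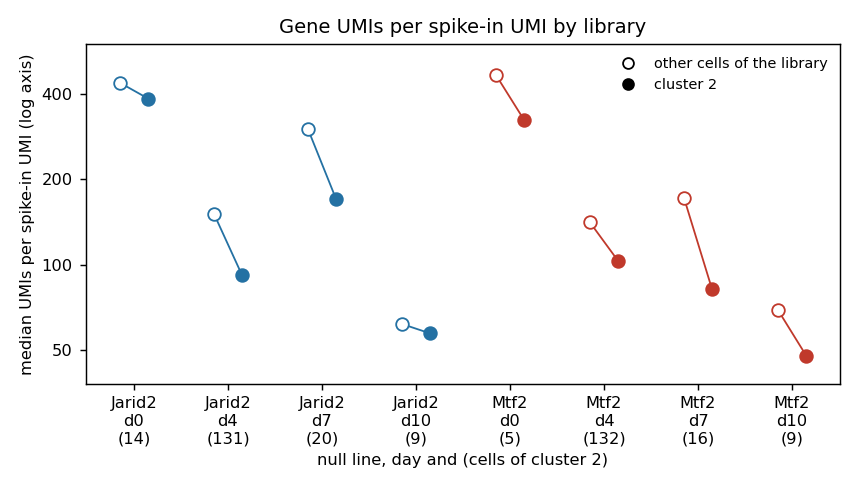
Median gene UMIs per spike-in UMI (log axis) in cluster 2 (filled) and in the other cells of the same library (open), with the number of cluster 2 cells in brackets. The filled point lies below the open point in 8 of 8 libraries, with the widest gap in Mtf2 null at day 7 (81.8 against 172).

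Against all other cells, the genes higher in cluster 2 included several that low oxygen is known to induce, and globin and mesoderm genes led the lower side. A gene was counted as higher or lower where the log2 ratio of summed UMI CPM (with 10 added to each) passed 1 in size and the higher side reached 50. By this limit 68 of 4627 genes (1.47%) were higher and 114 (2.46%) lower. The other cells span all days, while cluster 2 was mostly of day 4. With day 4 cells alone 44 genes passed, 31 of them among the 182 above, and Hba-a1 and Hba-a2 were no longer lower. Because the cells were clustered on these same genes, this and the following counts between clusters describe the cluster and carry no test. Bhlhe40, a repressor of the circadian and hypoxia responses, was at 246 UMI CPM against 75.6, Ddit4 at 459 against 161 and Bnip3 at 1170 against 460.1. Adm, a vasodilator peptide, was at 51.6 against 11.8, and Gpi1, an enzyme of glycolysis, at 1170 against 401. The epithelial transcription factor Elf3 was at 90.1 against 23.7, Rgcc, a cell cycle regulator, at 60.05 against 13.7 and the syndecan Sdc4 at 163 against 52.8. Dhrs7 (126 against 34.4), Bst2 (131 against 37.9) and Gas5 (857 against 270.2) were also among the leading genes. By list, 1 of 14 genes of glycolysis and hypoxia was higher (Bnip3), with 13 of 14 ratios above 0 and a median log2 ratio of 0.58 against −0.06 over all genes measured. Of the p53 targets 3 of 10 were higher (Bbc3, Pmaip1 and Trp53inp1, median 0.84), and of the integrated stress response 1 of 5 (Ddit4, median 0.66). Of the naive list 0 of 11 were higher and Zfp42 was lower (median 0.05). On the lower side were the embryonic globins Hbb-bh1 (2.35 against 487) and Hba-x (9.85 against 764), the mesoderm factor Hand1 (0.938 against 83.7), the smooth muscle actin Acta2 (0.469 against 67.2), Dlk1, Ccnd2 and Igfbp5.

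Levels in cluster 2 were also set against the other cells of the same library. Cells of each library entered the cluster by these genes, so likeness across libraries is a description. At later days those other cells include the germ layer lineages that the study names. Among the 7 null libraries with at least 9 cells of cluster 2, Bhlhe40 was higher than in the other cells of the same library in 7 of 7, with log2 ratios from 1.15 to 2.80. Bnip3 was higher in 7 of 7 (0.76 to 2.48), Ddit4 in 7 of 7 (0.13 to 2.90) and Aldoa, a glycolytic aldolase, in 7 of 7 (0.68 to 1.01). Of the rest of the glycolysis and hypoxia list, Slc2a3, Hk2, Pfkp, Pdk1 and Gapdh were higher in 7 of 7. Pkm and Vegfa were higher in 6 of 7, Slc2a1 and Pgk1 in 5 of 7, Eno1 in 4 of 7, Tpi1 in 3 of 7 and Ldha in 1 of 7. Of the 12 naive genes, 5 were higher in 7 of 7: Esrrb (0.53 to 4.70), Tfcp2l1 (0.31 to 3.51), Klf5 (0.28 to 2.72), Klf2 and Tbx3. Klf4 and Zfp42 were higher in 6 of 7, Fgf4, Nanog, Prdm14 and Tcl1 in 4 of 7, and Nr0b1 in 1 of 7. Dnmt3b, the de novo DNA methyltransferase, was lower in 7 of 7 (−2.41 to −0.997), as were Id1 and Lefty2. The lowest Ddit4 ratio came from Mtf2 null at day 10, where 9 cells of cluster 2 were at 413 UMI CPM and the other 312 cells at 376.

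Cluster 5 shared both null lines and the day with cluster 2, with 50 Mtf2 null and 129 Jarid2 null cells. Of 4469 genes, 127 (2.84%) were higher in cluster 2 and 47 (1.05%) lower. Ddit4 was at 470 UMI CPM (438 to 504) in cluster 2 and 99.9 (85.0 to 117) in cluster 5, and the intervals did not overlap. Bnip3 was at 1211 (1159 to 1264) against 509 (474 to 545) and Bhlhe40 at 244 (222 to 269) against 53.3 (42.7 to 65.9). Leading genes also included Ndrg1 (101 against 14.3), Ero1l, the endoplasmic reticulum oxidase (281 against 70.1), and Ccng2, a cyclin that goes with growth arrest (122 against 25.4).

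By list, 3 of 14 genes of glycolysis and hypoxia passed the limit upward (Aldoa, Bnip3 and Vegfa) and 12 of 14 had a ratio above 0, with a median log2 ratio of 0.54 against −0.04 over all genes measured. Of 10 measured p53 targets 4 were higher (Bbc3, Cdkn1a, Mdm2 and Trp53inp1) and all 10 had a ratio above 0, with a median of 0.92. Cdkn1a, the p21 inhibitor of cyclin-dependent kinases, was at 322 (296 to 350) against 88.7 (74.8 to 105), and Trp53inp1 at 240 (218 to 265) against 72.6 (60.02 to 87.0). Of the immediate early genes 3 of 4 were higher (Ier3, Jun and Junb). Of the integrated stress response list 1 of 5 passed, which was Ddit4. Trp53 itself was not higher, at 130 UMI CPM against 211 in cluster 5.

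Genes lower in cluster 2 than in cluster 5 included the transcription factor Mycn, the kinase Sgk1 and the DNA methyltransferase Dnmt3b. Mycn was at 206 UMI CPM in cluster 2, and inside the Mtf2 null library it was at 153 against 438 in cluster 5. The serum- and glucocorticoid-induced kinase Sgk1 was at 127 against 368 and the mitochondrial chaperonin Hspd1 at 252 against 634. The formative list had 3 of 6 measured genes lower (Dnmt3b, Lef1 and Tcf15) with a median of −1.03, and the list of Nodal, BMP, FGF and Wnt ligands and targets had 3 of 12 lower (Id1, Id3 and Lef1). Ccne1, cyclin E1 of the entry into S phase, was the 1 of 10 S phase genes past the limit (197 against 434), and 0 of 10 genes of G2 and M phase were. All 10 S phase genes had a ratio below 0, with a median of −0.35.

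The same contrast was then taken inside each library, which removes line and plate. Within the Mtf2 null library 142 of 4507 genes (3.15%) were higher in cluster 2 and 96 (2.13%) lower, and within the Jarid2 null library 195 of 4541 (4.29%) and 97 (2.14%). Of the 142 genes of the Mtf2 null library, 113 were measured in the Jarid2 null library, where 67 (59.3%) were also higher past the limit and 108 had the same sign. Those 67 were 34.4% of the 195. Downward, 20 of 68 measured genes (29.4%) were shared and 65 had the same sign. No gene passed the limit in opposite directions. Cells of both libraries were clustered together on these genes, so this likeness between the libraries carries no test. Ddit4 was at 418 against 108 UMI CPM in the Mtf2 null library and at 535 against 97.2 in the Jarid2 null library. Trp53inp1 was at 245 against 100 in the first and 236 against 63.1 in the second. The lists were not alike in the 2 libraries. Of the formative list, 1 of 5 measured genes was lower within the Mtf2 null library (Dnmt3b) and 3 of 6 within the Jarid2 null library (Dnmt3b, Lef1 and Tcf15). Tcf15 was at 114 against 103 in the first and 86.0 against 273 in the second. Of the signalling list, 1 of 10 was lower in the first (Etv5) and 6 of 12 in the second (Id1, Id2, Id3, Lef1, Lefty1 and Lefty2). Of the list of glycolysis and hypoxia, 3 of 14 and 4 of 14 were higher, and of the p53 list 3 of 10 and 5 of 11.

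**Figure D3:**
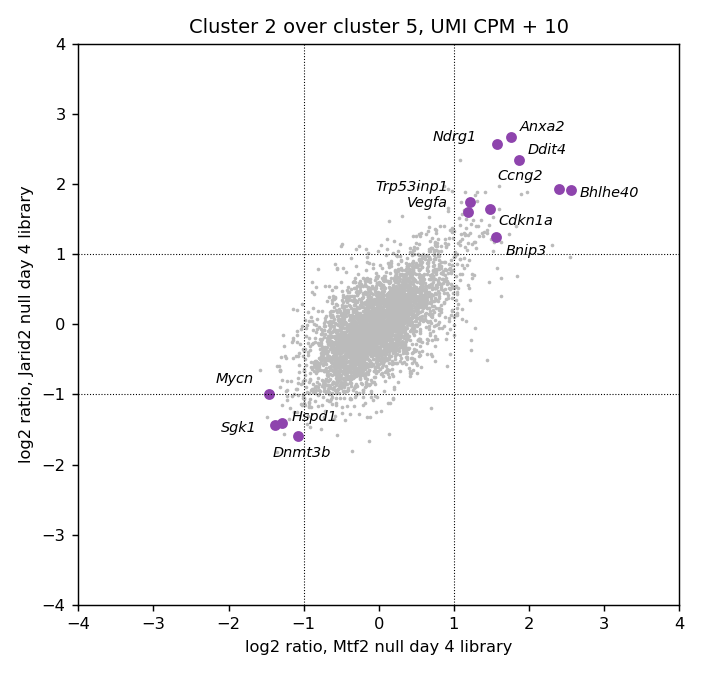
Log2 ratio of UMI CPM plus 10 in cluster 2 over cluster 5, within the Mtf2 null (horizontal) and the Jarid2 null (vertical) day 4 library, 1 grey point per gene and named genes in purple, with dotted lines at the limit of 1. Ddit4, Bhlhe40, Anxa2 and Cdkn1a lie past the limit upward in both libraries, and Mycn, Sgk1, Hspd1 and Dnmt3b past it downward or on it.

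By share of cells, Ddit4 was detected in 86.0% of cluster 2 cells of day 4 (227 of 264) and in 51.4% of cluster 5 cells (92 of 179), at median depths of 5878 and 8391 UMIs. With each cell thinned to 2500 UMIs, which left out 21 and 17 shallower cells, the shares were 62.1% (95% interval 55.7 to 68.3) and 19.1% (13.4 to 26.1). In cluster 4, which the study places in the lateral mesoderm lineage, it was 24.8% thinned and 51.9% unthinned (median 6138 UMIs), so Ddit4 was widely detected. Cdkn1a was detected in 36.6% of thinned cells in cluster 2 (58.0% unthinned), in 17.9% in cluster 5 (37.99% unthinned) and in 20.2% in cluster 4 (34.6% unthinned).

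Cluster 1 held 70 Mtf2 null, 12 Jarid2 null and 2 WT cells of day 4, and against it cluster 2 differed along the naive to formative axis. Of 4612 genes, 206 (4.47%) were higher in cluster 2 and 148 (3.21%) lower. Of the naive list 8 of 10 measured genes were higher (Esrrb, Klf2, Klf4, Klf5, Nr0b1, Tbx3, Tfcp2l1 and Zfp42), with a median log2 ratio of 1.97. Of the formative list 6 of 8 were lower (Dnmt3a, Dnmt3b, Fgf5, Otx2, Pou3f1 and Zic2), with a median of −1.95. Esrrb was at 139 UMI CPM (122 to 158) against 21.1 (13.1 to 32.3), and Tfcp2l1 at 123 (107 to 141) against 10.1 (4.82 to 18.5). Dnmt3b was at 275 (251 to 301) against 1818 (1735 to 1903) and Otx2 at 133 (117 to 152) against 457 (416 to 501).

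In thinned cells Esrrb was detected in 27.2% of cluster 2 (49.6% unthinned), 3.85% of cluster 1 (17.9% unthinned, median 10447 UMIs) and 1.32% of cluster 4 (2.16% unthinned), a cluster that should lack it. The signalling list had 8 of 13 genes lower in cluster 2 than in cluster 1, among them the Nodal inhibitors Lefty1 and Lefty2 and the FGF targets Dusp6 and Etv5. The p53 list had 5 of 10 higher, and Bnip3 and Pfkp were higher among the 14 genes of glycolysis and hypoxia. Within the Mtf2 null library alone, 187 of 4596 genes (4.07%) were higher than in cluster 1 and 173 (3.76%) lower. In cluster 2 at day 4, 12 of 12 naive genes were below their level in all day 0 cells in Mtf2 null and 11 of 12 in Jarid2 null, with Prdm14 as the exception. Klf5 was at 664 UMI CPM in Mtf2 null and 795 in Jarid2 null cells of cluster 2, against 1597 and 1017 in all day 0 cells of these lines. Esrrb was at 128 and 152 against 198 and 190.

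**Figure D4:**
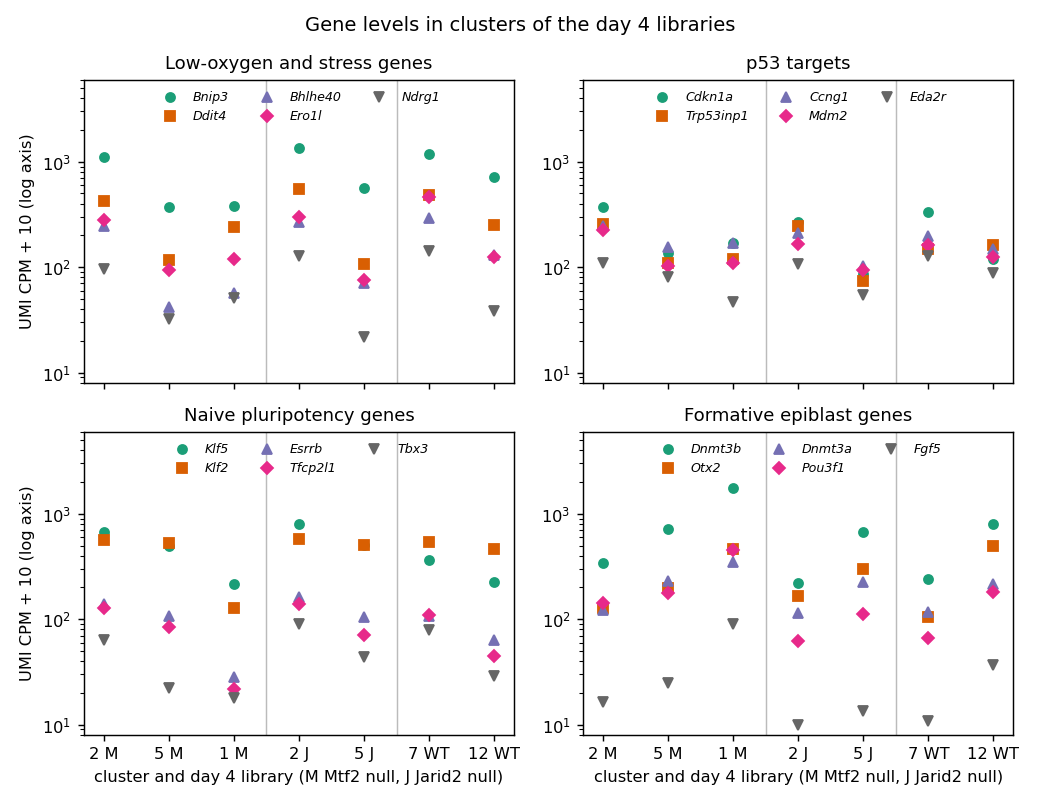
UMI CPM plus 10 (log axis) of low-oxygen and stress genes, p53 targets, naive genes and formative genes in clusters of the day 4 libraries (M for Mtf2 null, J for Jarid2 null), with grey lines between libraries. Ddit4 is higher in cluster 2 than in cluster 5 in both null libraries (418 against 108 and 535 against 97.2), and Dnmt3b is highest in cluster 1.

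WT cells of day 4 lay mostly in clusters 7 and 12, with 224 and 99 of 331 cells. Several genes that set cluster 2 apart from cluster 5 were at like levels in cluster 7 and lower in cluster 12. Bnip3, at 1211 UMI CPM in cluster 2, was at 1173 in WT cells of cluster 7 and 710 in those of cluster 12. Ddit4 was at 470, 473 and 240 in the same order and Cdkn1a at 322, 320 and 110, while Ero1l was higher in cluster 7 than in cluster 2, at 281, 450 and 116. Compared inside the WT library, 145 of 4497 genes (3.22%) were higher in cluster 7 than in cluster 12 and 335 (7.45%) lower. Of the genes higher in cluster 2 than in cluster 5 within the Jarid2 null library, 155 were measured in WT, and 67 of them (43.2%) were higher in cluster 7 than in cluster 12. Of those from the Mtf2 null library 39 of 112 (34.8%) were. On the lower side the counts were 44 of 76 (57.9%) and 33 of 69 (47.8%). The contrasts in the WT, Mtf2 null and Jarid2 null libraries share no cells, but all cells were clustered together on these genes. Likeness between these contrasts therefore carries no test.

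Set directly against cluster 7, cluster 2 had 200 of 4399 genes (4.55%) higher and 82 (1.86%) lower. Of the glycolysis and hypoxia list 1 of 14 passed the limit (Pkm, higher), of the p53 list 1 of 10 (Pmaip1, higher), and of the naive list 1 of 10 (Klf4, higher). Klf4 was at 102 UMI CPM (87.8 to 119) in cluster 2 against 20.6 (13.5 to 30.2) in cluster 7, and Pmaip1, which codes for the cell death protein NOXA, at 252 against 31.7. The FGF feedback genes Dusp6 and Spry4 were higher in cluster 2, as were Id3, Tet1, Sox11 and Tfap2c, while Bmp4 was lower. Many of the leading genes were ones in which the lines differed: Hprt (492 against 13.5), Mir692-2 (157 against 4.76), the imprinted RNA Meg3 (13.4 against 384.1) and its neighbour Rian (3.51 against 88.1). Against cluster 12, cluster 2 had 143 of 4573 genes (3.13%) higher and 133 (2.91%) lower. The naive list had 5 of 10 higher (Esrrb, Klf4, Klf5, Tbx3 and Tfcp2l1) and Zfp42 lower, the formative list had 3 of 6 lower (Dnmt3b, Otx2 and Zic2), and Lefty1 was at 61.4 against 287. Counts against these clusters moved with the scaling. The median of all genes was 0.13 above 0 against cluster 7, and with TMM scaling the counts became 126 higher and 164 lower there, and 96 higher and 89 lower against all other cells. For cluster 7 over cluster 12 in WT the median was −0.14, and TMM scaling gave 267 higher and 182 lower.

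The genes Rplp1, Gas5, Stmn1, Rpgrip1, Olig1, Olig2 and AC153548.1 were over 2-fold higher in every Mtf2 null and Jarid2 null library, at all days, than in every WT and Eed null library. Rplp1, a ribosomal protein gene with near-identical copies, was at 3250 to 4270 UMI CPM in the first and 132 to 584 in the second, but in undifferentiated bulk RNA it was at 906 ± 157 CPM (SD, n = 4) in WT and 926 ± 205 (n = 4) in Mtf2 null. Of these 7 genes 2 passed the limit against all other cells, 4 against cluster 7 and 0 against clusters 5 and 1. For these genes, and for Mir692-1 and Mir692-2, whose short sequences have many copies, differences between cluster 2 and cells of other lines are uncertain.

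Of the 320 Eed null cells of day 4, 217 lay in cluster 9 and 83 in cluster 10. Against cluster 9, 434 of 4538 genes (9.56%) were higher in cluster 2 and 265 (5.84%) lower, and against cluster 10, 234 of 4867 (4.81%) and 369 (7.58%). With TMM scaling these became 301 and 379, and 314 and 264. The p53 list stood out in both, with 9 of 10 genes higher against each (median log2 ratio 1.97 and 1.98). Clusters 9 and 10 were low in this list beside the other day 4 clusters too. Its summed UMI CPM was 567 and 523 there, 1013 to 1471 in clusters 1, 5, 7 and 12, and 1954 in cluster 2. Cdkn1a was at 322 UMI CPM against 54.9 in cluster 9 and Ccng1 at 222 against 27.8. Trp53 itself, at 130 UMI CPM in cluster 2, was at 17.2 in cluster 9 and 38.1 in cluster 10. On the lower side were genes otherwise active in germ cells, such as Xlr3a (0 against 152 in cluster 9 and 138 in cluster 10), Rhox5, Rhox6, Rhox9 and Sohlh2, and the imprinted RNA H19 (12.3 against 133 in cluster 9).

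The Mtf2 null and Jarid2 null cells of cluster 2 were then compared at day 4. Of 4462 genes, 45 (1.01%) were higher in Mtf2 null cells and 36 (0.807%) lower. The targeted genes and Y-linked genes led the list: Mtf2 was at 39.6 UMI CPM in Mtf2 null and 435 in Jarid2 null cells, Jarid2 at 397 and 84.7, and Eif2s3y at 110 and 1.303. Dnmt3l, a cofactor of DNA methylation, was at 441 (400 to 486) against 107 (85.0 to 133), and Lefty2 at 199 (172 to 230) against 48.2 (33.9 to 66.4). Klhl13 (385 against 48.2), Sfmbt2 (111 against 14.3) and Id2 (144 against 31.3) were also higher in Mtf2 null cells. Lef1, the Wnt effector, was at 10.7 (5.13 to 19.7) in Mtf2 null and 82.1 (63.1 to 105) in Jarid2 null cells, Klf4 at 61.03 (46.2 to 79.1) against 154 (127 to 184) and Igfbp2 at 336 against 857. None of the 14 genes of glycolysis and hypoxia and none of the 11 measured p53 targets passed the limit between the lines. All 14 of the first list were lower in Mtf2 null cells (median log2 ratio −0.27, against −0.03 over all genes measured), while 5 of 11 p53 targets had a ratio above 0. Adm, which is on neither list, was at 27.8 UMI CPM in Mtf2 null and 96.4 in Jarid2 null cells.

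The genes of cluster 2 were also read in separate bulk libraries of undifferentiated cells. The targeted gene Mtf2 was at 371 to 501 CPM in 4 WT libraries and at 29.3 to 32.96 in 4 Mtf2 null libraries (log2 fold change −3.80 ± 0.12 SE, edgeR quasi-likelihood test, Benjamini-Hochberg adjusted p = 2.5e-12). A gene was called at an adjusted p under 0.001 and a fold change above 1 (log2) in size. In Mtf2 null 1350 of 16655 genes (8.11%) were called higher and 1094 (6.57%) lower. Of the genes higher in cluster 2 than in cluster 7, 56 of 196 tested (28.6%) were called higher, and 2 were called lower. Of those lower, 22 of 72 (30.6%) were called lower and 2 higher. For the genes higher than in cluster 5 the calls were 38 higher and 8 lower of 123, and for those higher than in cluster 1, 71 higher and 14 lower of 201. For the genes lower than in cluster 5 they were 2 higher and 4 lower of 43, and for those lower than in cluster 1, 23 higher and 21 lower of 140. The study describes the duplicates as technical, so these p-values measure that spread.

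Klf4 was at 118, 121, 169 and 173 CPM in WT and at 325.2, 330.5, 335.5 and 336.5 in Mtf2 null, so the groups did not overlap. It rose by 1.24 ± 0.11 (log2, SE, edgeR adjusted p = 3.0e-07). Tfcp2l1 was at 230.5, 231.8, 347.5 and 351.3 in WT and at 728, 798, 867 and 991 in Mtf2 null, again without overlap (1.59 ± 0.15, edgeR adjusted p = 3.5e-07). Pmaip1 was at 12.0 to 16.3 in WT and 66.6 to 78.2 in Mtf2 null (2.40 ± 0.13, edgeR adjusted p = 6.9e-10), and Trp53inp1 and Elf3 rose by 1.11 and 1.24. Bnip3 and Bhlhe40, of the low-oxygen group, went the other way: Bnip3 was at 109, 117, 135 and 143 in WT and at 20.4, 21.4, 21.9 and 24.3 in Mtf2 null (−2.48 ± 0.14, edgeR adjusted p = 1.4e-09), and Bhlhe40 fell by 1.09. Ddit4 did not pass the limits (0.56 ± 0.13, edgeR adjusted p = 0.0022). The day 0 single cells gave the same order for Bnip3, at 59.6 UMI CPM in Mtf2 null, 132 in Jarid2 null and 348 in WT.

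The undifferentiated bulk libraries labelled Jarid2 null could not be set beside the Jarid2 null cells of cluster 2. Jarid2 was at 315 ± 8.4 CPM (SD, n = 4) against 407 ± 61 in WT and did not pass the limits (−0.41 ± 0.10, edgeR adjusted p = 0.0073). Hprt was at 0.440 CPM there, as in WT (0.316), while it was at 480 UMI CPM in the Jarid2 null cells of cluster 2, and Eif2s3y was at 62.2 CPM while it was at 0.965 UMI CPM in those cells. By the same test 98 of 16655 genes (0.588%) were called higher in the libraries labelled Jarid2 null and 93 (0.558%) lower, both against the same WT libraries as above.

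Many, but not all, of the genes that set cluster 2 apart from cluster 5 differed in the same direction between day 4 and day 2 in bulk embryoid bodies of every line. Fewer cells of a type and less RNA per cell cannot be told apart in bulk RNA. In 6 lines (Mtf2 null, Jarid2 null and Eed null as labelled, with Pcl1-3 WT, JM8 WT and J1 WT), with 1 sample per line and day, 20.9% of 16044 genes were higher at day 4 than at day 2 in all 6 lines and 20.1% were lower. Of the genes higher in cluster 2 than in cluster 5, 65 of 119 measured (54.6%) were higher at day 4 in all 6 lines. Of the lower genes 29 of 43 (67.4%) were lower in all 6. Ddit4 was higher at day 4 by 0.67 to 2.39 (log2 of the deposited normalized value plus 1), with the lowest change in J1 WT. Anxa2, Ndrg1, Ccng2, Wipi1 and Mbnl2 were higher in 6 of 6 lines. Bhlhe40, Adm, Crebrf and Ero1l were higher in 5 of 6, with J1 WT as the exception, and Cdkn1a in 4 of 6. Sgk1, Mycn, Hspd1 and Nqo1 were lower in 6 of 6, while Lef1 was higher in 6 of 6, Id3 in 5 of 6 and Dnmt3b in 4 of 6, against their direction in cluster 2. Cdkn1a was lower at day 4 in the Eed null and Mtf2 null lines (−0.30 and −0.27) and higher in the other lines.

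**Figure D5:**
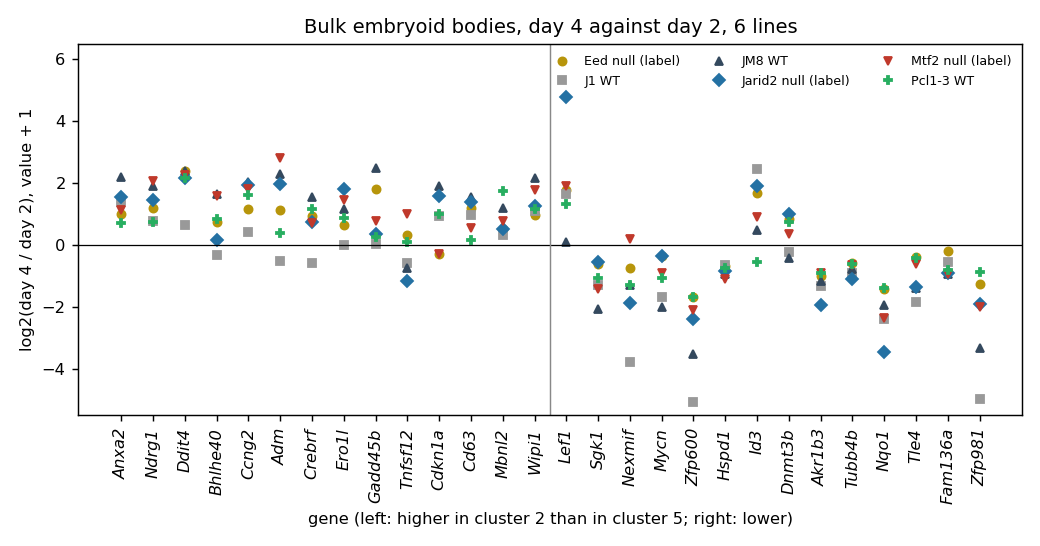
Log2 of the day 4 over the day 2 value (plus 1) in bulk embryoid bodies of 6 lines, for the leading genes higher (left) and lower (right) in cluster 2 than in cluster 5, 1 point per line. Ddit4 lies above 0 in 6 of 6 lines and Hspd1 below 0 in 6 of 6, while Lef1 lies above 0.

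Between lines, neither Mtf2 nor Jarid2 passed the threshold in bulk embryoid bodies of its own null label. Mtf2 was at 1628, 1155, 1220 and 886 normalized counts at days 0, 2, 4 and 7 in the libraries labelled Mtf2 null and at 2134, 2229, 1666 and 1986 in Pcl1-3 WT (−0.74 ± 0.25, limma adjusted p = 0.060), and it was lower on each of the 4 days without overlap. Jarid2 differed by −0.09 ± 0.21 between the libraries labelled Jarid2 null and JM8 WT (limma adjusted p = 0.81). With 1 sample per line and day, the 4 days of a line served as its replicates. All limma p-values here therefore measure the spread of a line across days, not the spread between cultures. The day 0 library labelled Jarid2 null was the one low in Mtf2, at 667, with Hprt at 546, and the day 0 library labelled Mtf2 null had Hprt at 0.865 while days 2 to 7 of that label were at 260 to 781. With these label doubts, limma called 1393 of 13831 genes (10.1%) higher and 1120 (8.10%) lower for the libraries labelled Mtf2 null, and 979 (7.08%) and 1080 (7.81%) for those labelled Jarid2 null, at an adjusted p under 0.05. Without day 4 the calls came to 744 and 422 in the 2 comparisons, without day 7 to 976 and 865, and without day 2 to 1939 and 801. Of the genes higher in cluster 2 than in cluster 5, 18 of 119 (15.1%) were called higher and 11 (9.24%) lower in the first comparison, and 9 (7.56%) and 10 (8.40%) in the second. Most of the genes that set cluster 2 apart from cluster 7 were not called here, and those that were called went mostly the other way. Of those higher in cluster 2, 14 of 189 (7.41%) were called higher and 22 (11.6%) lower in the first comparison. In the second, 2 (1.06%) were called higher and 39 (20.6%) lower. Of those lower in cluster 2, 20 of 62 (32.3%) were called higher and 0 lower in the first, and 20 and 2 in the second.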

How the data were processed

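Single-cell expression was measured in 16 libraries by SORT-seq, in which single live cells are sorted into 384-well plates and carry molecular identifiers (UMIs). The authors mapped reads to GRCm38/mm10 with Bowtie2, counted them with HTSeq and kept cells by a gene number filter. The deposited values are UMI counts for 15830 genes, and the deposited metadata gave genotype, day and cluster of each kept cell. The authors clustered cells with Seurat on 15 principal components with library regressed out. Libraries held 202 to 347 cells and 1339722 to 3889890 UMIs, and the median cell held 5521.5 UMIs in cluster 2 and 6731 elsewhere. For 59 cells the deposited total differed from the sum over genes. One cell was sorted per well and no doublet caller was run. The same 384 well barcodes were used in every plate, so cells were identified by plate and barcode together. The spike-in file held 1 well fewer than the plate. Its values were aligned with the first well missing, which gave the higher correlation with gene UMIs in 16 of 16 plates, and 9 cells had no spike-in value. These correlations were 0.125 to 0.821, against 0.036 to 0.3545 with the last well missing. They were weakest at day 10 (0.125 to 0.203). The UMIs per spike-in UMI rest on this alignment.

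UMIs were summed over the cells of a group and set against each other as log2 ratios of UMI CPM with a pseudocount of 10, past the limit at a ratio over 1 in size with at least 50 UMI CPM in the higher group. Lists are counted over genes at 50 UMI CPM or more in either group.

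For undifferentiated bulk RNA the authors deposited estimated counts from Salmon (9883730 to 16365806 per library), rounded here to whole numbers and tested with edgeR (TMM, filterByExpr, series as a term). For bulk embryoid bodies the authors deposited signal values, which are HTSeq counts divided by DESeq2 size factors, with sequencing runs averaged per sample here. These values were whole reads within 0.01 after rescaling, at 6250863 to 30457254 reads per sample. They were tested with limma on log2(value + 1), with day as a block and a minimum of 10 in at least 4 of 16 samples. The study's methods give versions of Seurat and DESeq2, and for Bowtie2, HTSeq and Salmon a version is not given in the sources used here. Both tests were run on simulated data with 4-fold and 8-fold changes and recovered 100% of the changed genes in each comparison. The simulated spread was an assumed value, without effects of series or of line by day, and only genes above a minimum level were changed. This checks the code under that spread and does not measure power or false calls in the real data. False calls numbered 0 in the undifferentiated comparisons, and 8 and 14 in the embryoid body comparisons of Mtf2 and Jarid2.

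The members of the cluster, the 24 gene lists (224 of 230 genes in the single-cell table) and the comparisons were chosen with earlier results of these data known. Named genes are the targeted genes, the genes of these lists, and up to 15 leading genes per direction in each comparison that moved the same way in Mtf2 null and Jarid2 null cells. Any other gene named was chosen after its values were seen. Alternatives varied the pseudocount, the minimum, the scaling, the test, the cells and the libraries. Versions were Python 3.11.15, numpy 2.4.6, pandas 2.3.3, scipy 1.17.1, matplotlib 3.10.9, R 4.3.3, edgeR 4.0.16, limma 3.58.1 and DESeq2 1.42.0.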

Additional observations from a re-analysis of the deposited data

Results flagged for a closer look

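Of 46 groups of 4 undifferentiated bulk libraries tested for the genes the text names, 2 held a library farther from the other 3 than Dixon's gap test allows at its 95% limit. Chance alone gives such a library in about 5% of groups. Ddx3y, a Y-linked RNA helicase gene, was at 52.09 CPM in the second endoderm library labelled Jarid2 null and at 60.11, 60.41 and 61.33 in the other libraries of that label. Elf3 was at 33.67 CPM in the first endoderm library of Mtf2 null and at 39.53, 39.92 and 40.33 in the others.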

How the results depend on the processing

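The numbers of genes past the limit moved with the pseudocount and with the minimum. They are given in the order all other cells, clusters 1, 5, 7, 9, 10 and 12, and Mtf2 null against Jarid2 null. As reported they were 182, 354, 174, 282, 699, 603, 276 and 81. With a pseudocount of 50 they were 77, 121, 40, 76, 200, 228, 87 and 16, and with no minimum 380, 6.1e+02, 295, 539, 1291, 1104, 514 and 259. A pseudocount of 1 gave 135 between the lines. With cells of day 4 alone, 44 genes passed against all other cells, where Hba-a1 and Hba-a2 reversed to 0.011 and 0.145 (log2). Against cluster 5, the Jarid2 null cells of cluster 2 alone gave 271, and the Jarid2 null library on both sides, a choice made after seeing the data, gave 292.

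In undifferentiated bulk RNA 2444 genes were called for Mtf2 null and 191 for the libraries labelled Jarid2 null. The mesoderm series alone gave 1625 and 14, the endoderm series alone gave 71 for Jarid2, and no filter gave 364 for Jarid2. DESeq2 gave 2535 and 220, and leaving out 1 library at a time 2195 to 2437 and 139 to 185. Replicate numbers did not pair the libraries (correlations of same-numbered deviations −0.436 to 0.414), and a fit with a replicate block called 2394 and 176. In bulk embryoid bodies 2513 and 2059 genes were called in the Mtf2 and the Jarid2 comparison. Without the day block these were 497 and 334, and with its own WT line alone Mtf2 gave 1180. Leaving out day 2, 4 or 7 in turn gave 744 to 1939 and 422 to 865, and leaving out day 0 gave 2695 and 2566. The fold change of Jarid2 itself (log2) was −0.208 without day 0, −0.141 without day 2 and 0.065, a reversed sign, without day 7. edgeR on recovered reads, added after seeing the data, called 2355 and 1712. The cause of these shifts was not tested beyond the smaller number of genes or samples that an alternative leaves.

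Of the other values, 1702 moved by less than their limit, 305 moved more, 3 reversed, 2 passed and 12 lost their threshold. Limits: with 1 library per genotype and day, and WT cells of another line, genotype, line and plate cannot be told apart. Clusters were made from the genes compared here, so differences between them carry no test. At this depth, genes under 50 UMI CPM were not compared. Bulk libraries of embryoid bodies, and those of undifferentiated cells labelled Jarid2 null, carry doubts about their labels.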

Other observations

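Among genes that write or remove DNA methylation, Dnmt3b was the 1 of 7 measured that passed the limit between clusters 2 and 5 (275 against 667 UMI CPM, beside 1.05% of all genes that were lower), and all 7 had a ratio below 0. Against cluster 1, Dnmt3a (109 against 364) and Dnmt3b were lower and Tet2, a 5-methylcytosine dioxygenase, was higher (77.8 against 31.1). In WT cells of day 4, Dnmt3b and Tet1 were lower in cluster 7 than in cluster 12. Among PRC2 subunits, 1 of 9 measured passed against cluster 5: Ezh1, the second methyltransferase of the complex, was at 67.8 against 24.8 UMI CPM. Inside the Jarid2 null library it was at 63.8 against 21.6, and inside the Mtf2 null library, where it did not pass, at 71.7 against 34.3.

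Of the integrated stress response list, 3 of 5 measured genes were higher than in cluster 1 (Asns, Chac1 and Ddit4, beside 4.47% of all genes) and 4 of 5 than in cluster 10 (Atf4, Chac1, Ddit4 and Sesn2, beside 4.81%). Asns, the asparagine synthetase, was at 288 UMI CPM in cluster 2 and 132 in cluster 1. Of the imprinted genes, 7 of 12 measured were lower than in all other cells (Cdkn1c, Dlk1, H19, Meg3, Mest, Peg10 and Peg3, beside 2.46% of all genes), while against cluster 5 none of 7 passed. Among germ cell genes Dppa2 was at 73.7 UMI CPM against 171 in cluster 5, and Dppa3 at 90.7 against 36.2 in cluster 1. Dppa2 and Dppa3 were also both lower in cluster 7 than in cluster 12 in WT cells. Nqo1, a quinone reductase of the oxidative stress response, was lower in cluster 2 (64.9 UMI CPM) than in cluster 5 (161) and higher than in cluster 7 (22.2). None of these values carries a test.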
